A study of Mus musculus with 12 samples.

Results

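The sarcomeric myosin heavy chains are the motor proteins of the thick filament in striated muscle, and 8 of their genes were described here out of 54532 in the gene table. They were chosen by gene symbol and not by a measured value, though earlier results of these data were known. They are Myh4, Myh1 and Myh2 (adult fast forms), Myh3 and Myh8 (embryonic and perinatal forms), and Myh7, Myh7b and Myh6 (slow and cardiac forms). RNA was sequenced from whole tibialis anterior, a fast muscle of the mouse lower hind leg, in 12 libraries made 5 days after glycerol was injected into the muscle. Glycerol injury kills fibres, which then regenerate while adipocytes form between them. The 6 control libraries carry the genotype Wildtype. The 6 knockout libraries are labelled FAP no ppary, where Pparg, the receptor that drives adipocyte differentiation, was removed by conditional deletion from fibro-adipogenic progenitors (FAPs). These mesenchymal cells give rise to fat in muscle. All 12 share the glycerol injury, the tissue and the entry 129svlmJ. The driver of the deletion and the age and sex of the mice were not given in the sources used here. Whether each library came from its own animal is not stated by the labels, and the spread behind every p-value is therefore that between libraries, which may be technical. Libraries are called control 1 to 6 and knockout 1 to 6 after their titles. The comparison asks whether myosin expression in regenerating muscle differed when FAPs lacked Pparg.

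A sarcomeric myosin molecule holds a pair of heavy chains, each with an ATP-splitting head and a long tail that packs into the filament, and the form of heavy chain largely sets how fast a fibre shortens. Fibres that regenerate are known to switch on the embryonic and perinatal forms, as in development, and to replace them with adult forms as they mature. Uninjured mouse tibialis anterior is known to hold mostly fast fibres and very few slow ones. In whole tissue, fewer cells of a type and less RNA per cell cannot be told apart, so a value below is the amount of a transcript in the whole muscle.

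Library totals ranged from 15716056 to 29790720 counts, and the 8 genes together took between 0.830% and 1.76% of them. Levels of a gene across libraries are given in CPM, its count relative to the library size after TMM scaling. Pparg averaged 57.4 ± 8.27 CPM over the controls and 26.4 ± 10.3 CPM over the knockouts (SD, n = 6 each), with every knockout library below every control. Markers of skeletal muscle fibres (Acta1, Ckm, Des, Tnnt3) summed to between 10558 and 30460 CPM over the 12 libraries. Markers of cardiac muscle summed to between 4.10 and 7.42 CPM, and the atrial light chain Myl7 was at 0 in every library. The 5 adipocyte markers together lay between 2280 and 3872 CPM in controls and between 394 and 1553 CPM in knockouts, so the groups did not overlap. The number of these markers called lower depended on the tool. With edgeR only Fabp4 passed (log2 fold change -1.63, adjusted p = 0.0193; 0.75% of all genes were called lower). DESeq2 called 4 of the 5 lower, Adipoq, Cidec, Fabp4 and Plin1 (2.03% of all genes), and limma-voom called 3, Cidec, Fabp4 and Plin1 (1.98%). Between 2.66% and 10.8% of counts came from the mitochondrial genome's 13 protein genes.

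The 5 adult fast and developmental forms lie side by side on chromosome 11 in a cluster of 230335 bases (GRCm38), all on the plus strand. The order is Myh3 (67078300 to 67102291), Myh2 (67171027 to 67197517), Myh1 (67200052 to 67224575), Myh4 (67238029 to 67260446) and Myh8 (67277124 to 67308634). The gap is 68735 bases after Myh3, 2534 after Myh2, 13453 after Myh1 and 16677 after Myh4. Myh6 (54941921 to 54966927) and Myh7 (54970684 to 54994626) are neighbours on the minus strand of chromosome 14, and Myh7b lies alone on chromosome 2 (155611212 to 155634307). The start regions of the cluster genes are shown because 4 of them hold closely similar stretches, while the RNA of these genes was read at very different levels. The stretches come from RefSeq (GRCm38.p6, plus strand, 5′ to 3′), each ends before the transcription start, and capitals mark the longest words shared by them, TTCTAATTATATCC (Myh1, Myh2, Myh4 and Myh8) and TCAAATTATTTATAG (Myh1, Myh4 and Myh8), or TATAAAA in Myh3.
Myh2, chr11:67170850-67170920: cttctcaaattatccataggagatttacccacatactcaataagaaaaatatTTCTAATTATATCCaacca
Myh1, chr11:67199882-67199960: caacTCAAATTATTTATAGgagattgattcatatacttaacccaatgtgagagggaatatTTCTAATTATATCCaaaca
Myh4, chr11:67237621-67237672: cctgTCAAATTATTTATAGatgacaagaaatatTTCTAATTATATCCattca
Myh8, chr11:67277016-67277088: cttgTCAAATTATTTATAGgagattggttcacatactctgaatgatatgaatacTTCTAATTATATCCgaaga
Myh3, chr11:67078211-67078299: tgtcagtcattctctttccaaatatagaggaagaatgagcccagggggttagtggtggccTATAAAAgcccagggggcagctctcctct

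The words were found by comparing these windows with each other. Searched on both strands in the 250 bases before each of 32851 RefSeq starts, TTCTAATTATATCC occurred in 4 windows (0.0122%), those of Myh1, Myh2, Myh4 and Myh8. It began 160 bases before the start of Myh1, 125 before Myh2, 158 before Myh4 and 54 before Myh8. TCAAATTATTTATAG occurred in 3 windows (0.00913%), those of Myh1, Myh4 and Myh8, and began 216, 187 and 104 bases before their starts. TATAAAA is a common word, found in 4.98% of windows and in those of Myh1, Myh3 and Myh4. The searched words do not overlap each other in these windows. A match describes the letters only and shows no binding. The windows of Myh6, Myh7 and Myh7b held none of these words.

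Compared per length, on the deposited FPKM scale (fragments scaled to gene length and library size), the muscle RNA was led by Myh4. The mean FPKM level over the 12 libraries was 1278 for Myh4, 382 for Myh1, 329 for Myh3, 93.4 for Myh8, 14.1 for Myh2, 0.636 for Myh7b, 0.279 for Myh7 and 0.0701 for Myh6. By this mean Myh4 ranked 21st, Myh1 100th and Myh3 118th among 22033 protein-coding genes of the nuclear genome. Most neighbours in the order kept it in all 12 libraries: Myh4 over Myh1, Myh3 over Myh8, Myh8 over Myh2, and Myh2 over Myh7b. Myh1 and Myh3 did not separate, as Myh1 exceeded Myh3 in only 7 of 12 libraries, and not in control 2, control 6, knockout 3, knockout 5 or knockout 6. Myh7b exceeded Myh7 in 11 of 12 (not in knockout 2), and Myh7 exceeded Myh6 in 11 of 12 (not in knockout 4). The gene length of the table, 11772 bases for Myh8, counts exons of all its transcripts. Its longest coding transcript has 6149 bases, so the FPKM of Myh8 is 1.91 times lower than a value per coding transcript would be.

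No myosin heavy chain passed the test between groups. Of the 8 genes, 7 had enough counts to be tested, and 0 of these 7 had an edgeR adjusted p under 0.05, against 0.799% of the 16393 genes tested (0.0488% called higher and 0.75% called lower). At an unadjusted p under 0.05 the count was also 0 of 7, against 9.47% of all genes. The groups overlapped in CPM for all 7 genes, against 1.43% of genes without overlap. At an adjusted p under 0.05, DESeq2 called 0 of the 7 (2.43% of all genes), limma-voom 0 (2.37%) and limma on log2(FPKM + 1) 0 (1.05%). At an unadjusted p under 0.05, DESeq2 counted 1 of the 7 (Myh3), against 1704 of all 16393 genes. Limma-voom counted 2 of the 7 (Myh3 and Myh7b), against 2496 of all 16393 genes. All 7 fold changes were nevertheless above 0, with a median log2 fold change of 0.32 against -0.0013 over all genes, of which 49.5% were above 0. The genes share fibres and libraries, so their common sign is a description.

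**Figure D1:**
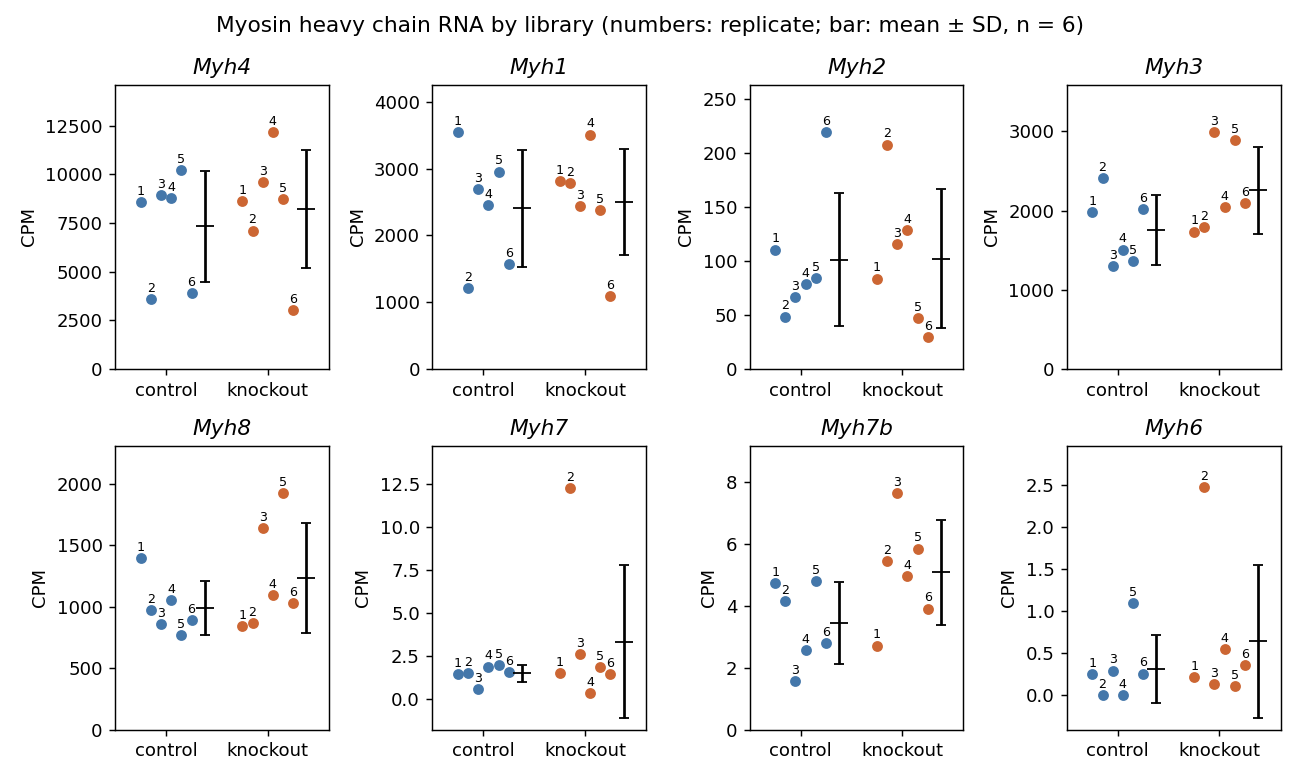
Level of each of the 8 myosin heavy chain genes in CPM (linear axes) in 6 control and 6 knockout libraries, numbered by replicate, with the mean and SD of each group beside the points. Control 2, control 6 and knockout 6 lie lowest for Myh4 and Myh1, knockout 3 and 5 lie highest for Myh3 and Myh8, and knockout 2 stands alone for Myh7 at 12.3 CPM.

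Myh4 encodes the IIb heavy chain of the fastest fibres. It was read at 8580, 3584, 8921, 8795, 10220 and 3878 CPM in control 1 to 6, and at 8606, 7104, 9602, 12160, 8735 and 3031 CPM in knockout 1 to 6. Control 2, control 6 and knockout 6 were low, between 3031 and 3878 CPM, and the other 9 libraries began at 7104 CPM, so each group held both low and high libraries. Controls averaged 7330 ± 2847 CPM and knockouts 8206 ± 3034 CPM (SD, n = 6 each). This is a log2 fold change of 0.16 (SE 0.33, 95% interval -0.54 to 0.86, edgeR adjusted p = 0.961). The interval runs from 0.689-fold to 1.82-fold.

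Myh1, the IIx heavy chain, showed the same layout at a lower level. The lowest, median and highest values were 1212, 2576 and 3544 CPM in controls and 1091, 2609 and 3509 CPM in knockouts. Its 3 lowest libraries were again knockout 6, control 2 and control 6. Knockouts differed by a log2 fold change of 0.06 (SE 0.28, 95% interval -0.55 to 0.67, edgeR adjusted p = 0.992).

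Myh2, the IIa heavy chain of oxidative fast fibres, was a minor form with a wide spread. Controls held 110.5, 48.4, 66.7, 78.6, 84.4 and 219.3 CPM and knockouts 83.7, 207.8, 115.5, 129, 46.8 and 29.6 CPM, in order of replicate. Control 6 and knockout 2 stood apart from the other 10 libraries, of which knockout 4 was the highest, and the groups overlapped. The log2 fold change was 0.01 (SE 0.46, 95% interval -0.98 to 1.00, edgeR adjusted p = 0.999).

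Myh3, the embryonic heavy chain that marks newly formed fibres, was abundant in every library. Controls 1 to 6 held 1978, 2408, 1294, 1507, 1357 and 2014 CPM, and knockouts 1 to 6 held 1733, 1792, 2988, 2047, 2894 and 2091 CPM. Knockout 3 and knockout 5 lay above all controls, the other 4 knockouts lay within the control range, and the lowest knockout exceeded 3 controls. The means were 1759 ± 442 CPM and 2258 ± 548 CPM (SD, n = 6 each). On the log2 scale the difference was 0.36 (SE 0.19, 95% interval -0.04 to 0.76, edgeR unadjusted p = 0.0766, adjusted p = 0.606).

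Myh8, the perinatal heavy chain that follows Myh3 in development, had the same 2 high libraries. The lowest, median and highest values were 771, 928 and 1395 CPM in controls and 838, 1061 and 1923 CPM in knockouts. Knockout 3 at 1640 CPM and knockout 5 at 1923 CPM lay above the highest control, and the other 4 knockouts were within the control range. The fitted log2 fold change of 0.32 came with a wide interval (SE 0.22, 95% interval -0.15 to 0.78, edgeR adjusted p = 0.772). Without knockout 5 the value was 0.16. The satellite cell (muscle stem cell) markers Pax7, Myf5 and Cdh15 summed to between 67.1 and 99.7 CPM in controls, and to 93.6, 72.0, 156.8, 142.5, 111.0 and 115.9 CPM in knockout 1 to 6. Knockouts 3 to 6 lay above every control in this sum, and all 3 fold changes were above 0. Cdh15, a cadherin of these cells, had a log2 fold change of 0.59 and an adjusted p of 0.128 with edgeR, 0.0222 with DESeq2 and 0.0453 with limma-voom, so its call depended on the tool. DESeq2 called 0.409% of all genes higher and limma-voom 0.39%. What part this had in the myosin values was not tested.

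Myh7 encodes the slow heavy chain, also known as beta myosin of the heart, and was scarce. Controls 1 to 6 held 30, 33, 14, 34, 45 and 31 counts, and knockouts 1 to 6 held 35, 219, 79, 5, 34 and 33 counts. Knockout 2 stood apart at 12.3 CPM (exact Poisson 95% interval 10.7 to 14.0 CPM, counting error only), while the other 11 libraries lay between 0.343 and 2.61 CPM. The log2 fold change of 1.15 (SE 0.64, 95% interval -0.24 to 2.54, edgeR adjusted p = 0.648) rested on that library, and was 0.09 without it.

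Of 10 slow fibre partner genes, knockout 2 lay above all controls in 4 (Myl2, Myl3, Tpm3 and Tnnc1) and within the control range in the other 6. This library was singled out by its Myh7 value. The share of all genes in which it lay above all controls is not given here, so the count is a description. The sum over the 10 was 2654 CPM in knockout 2, inside the control range of 1869 to 2805 CPM. The slow regulatory light chain Myl2 was at 22.3 CPM there and at 5.84 CPM in control 6, and at most 1.57 CPM in the other 10 libraries. The slow essential light chain Myl3 was at 11.0 CPM in knockout 2 and between 1.11 and 4.76 CPM elsewhere. The summed cardiac markers of knockout 2 were 5.61 CPM, inside the control range of 4.10 to 7.41 CPM. Its sum of the macrophage and leukocyte markers Adgre1, Cd68, Itgam and Ptprc was the highest of all libraries at 896 CPM, next to 894 CPM in knockout 6 and 854 CPM in control 6, with 594 to 702 CPM in the other 9. The part of these cells in the slow myosin values was not tested.

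Myh7b, a relative of the slow form that hosts a muscle microRNA, was detected in all libraries at 38 to 231 counts. Controls held 4.74, 4.15, 1.57, 2.57, 4.80 and 2.79 CPM and knockouts 2.71, 5.44, 7.63, 4.94, 5.84 and 3.90 CPM, in order of replicate. Knockouts 2 to 5 lay above all controls, by a narrow margin in knockout 4, and knockout 1 and 6 lay within the control range. The means were 3.44 ± 1.32 CPM and 5.08 ± 1.69 CPM (SD, n = 6 each). The log2 difference was 0.56 (SE 0.29, 95% interval -0.06 to 1.18, edgeR unadjusted p = 0.0711, adjusted p = 0.594).

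Myh6, the alpha heavy chain of the heart, was not tested because only 2 libraries reached 10 counts. Controls 1 to 6 held 5, 0, 7, 0, 25 and 5 counts, and knockouts 1 to 6 held 5, 44, 4, 8, 2 and 8 counts. Control 5 and knockout 2 stood above the rest. The 0 in control 2 allows up to 0.138 CPM and that in control 4 up to 0.168 CPM, counting error only (3 counts over the scaled library size). Myh6 and Myh7 transcripts are 90.1% identical, and 22.6% of the 50-base words of Myh6 also occur in Myh7, so the split of counts between them is uncertain.

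The slow and cardiac myosin genes are known to carry the muscle microRNAs in their introns, and the 3 mature forms are shown because they resemble each other. They come from RefSeq (GRCm38.p6), and capitals mark the seed, bases 2 to 8.
mmu-miR-208a-3p, in Myh6, chr14:54949072-54949093, minus strand: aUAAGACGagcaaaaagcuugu
mmu-miR-208b-3p, in Myh7, chr14:54975710-54975731, minus strand: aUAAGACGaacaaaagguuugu
mmu-miR-499-5p, in Myh7b, chr2:155622893-155622913, plus strand: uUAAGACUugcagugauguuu

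miR-208a-3p and miR-208b-3p share the seed UAAGACG, and miR-499-5p has the seed UAAGACU. The rows of the 3 microRNA genes held 0 counts in all 12 libraries. Libraries of poly-A-selected RNA are not made to capture such short RNAs, so these zeros say nothing about the mature forms.

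**Figure D2:**
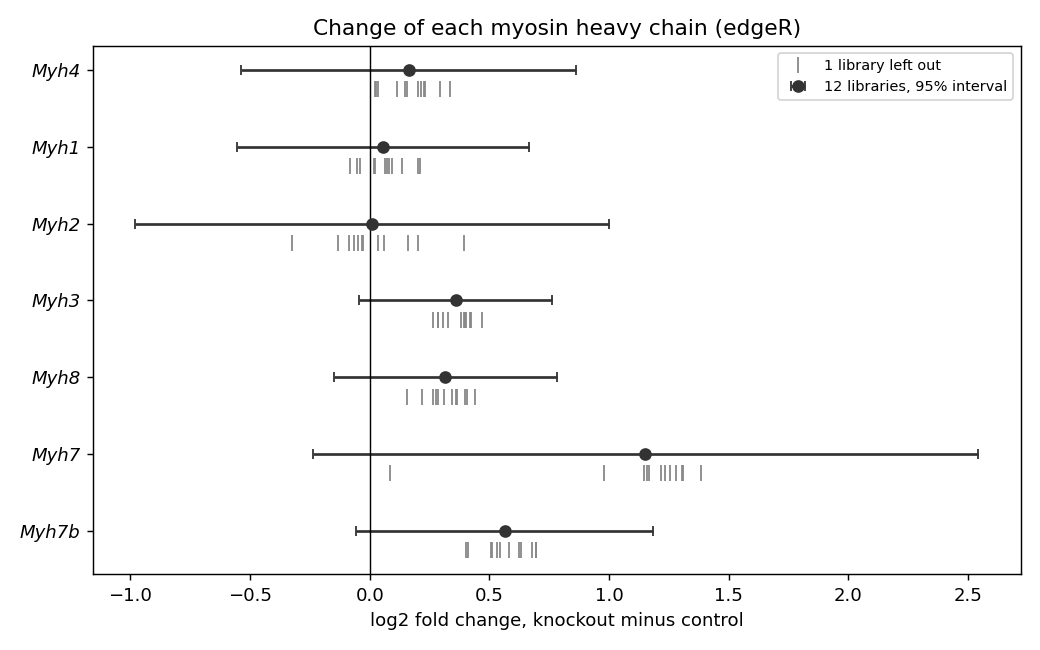
Log2 fold change, knockout minus control, of the 7 tested myosin heavy chain genes from the edgeR fit over all genes (points) with the 95% interval (bars), and the same value with 1 library left out in turn (ticks below each bar). All 7 intervals cross 0, and the value of Myh7 drops from 1.15 to 0.09 when knockout 2 is left out.

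The share of each form in the myosin pool overlapped between groups for all 8 genes, and 0 of 8 shares passed the test. A share is the count per base of table gene length, as a percent of the sum over the 8 genes in that library. Myh4 held 59.4% ± 9.83 of the pool in controls against 58.9% ± 7.44 in knockouts (SD, n = 6 each). The difference was -0.416 percentage points (two-sided exact permutation p = 0.944). Myh1 held 18.7% ± 2.54 and 17.5% ± 2.88 (difference -1.20 points, exact permutation p = 0.468, n = 6 each). Together with Myh2, the adult fast forms made up between 61.1% and 88.2% of the pool in every library.

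Myh3 held 16.6% ± 9.23 of the pool in controls against 17.9% ± 7.17 in knockouts (SD, n = 6 each, difference 1.34 points, two-sided exact permutation p = 0.805). Myh8 held 4.50% ± 1.44 and 4.94% ± 1.98 (difference 0.437 points, exact permutation p = 0.665, n = 6 each). Per longest coding transcript the Myh8 share was 8.16% ± 2.51 in controls and 8.91% ± 3.43 in knockouts (exact permutation p = 0.671, n = 6 each). That choice of length moved the level of Myh8 and left its comparison on the same side of the threshold. The developmental forms Myh3 and Myh8 together held 18.2%, 37.7%, 13.0%, 15.4%, 11.7% and 30.7% in control 1 to 6, and 15.9%, 18.3%, 24.1%, 14.3%, 25.9% and 38.9% in knockout 1 to 6. The 3 highest were knockout 6, control 2 and control 6, the libraries that were lowest in Myh4, and 5 of 6 knockouts lay within the control range.

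Minor forms were small and uneven. Myh2 held 0.813% ± 0.737 in controls and 0.636% ± 0.417 in knockouts (exact permutation p = 0.619, n = 6 each), with 2.31% in control 6 and 1.44% in knockout 2. Myh7b held 0.0279% ± 0.0132 and 0.0359% ± 0.0127 (exact permutation p = 0.310, n = 6 each). Myh7 held 0.00948% ± 0.00413 and 0.0192% ± 0.0256 (exact permutation p = 0.589, n = 6 each). Myh6 held 0.00214% ± 0.00244 and 0.00473% ± 0.00676 (exact permutation p = 0.530, n = 6 each). None of the 8 unadjusted p-values was under 0.05, and the smallest value that 924 assignments can give is 0.00216.

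**Figure D3:**
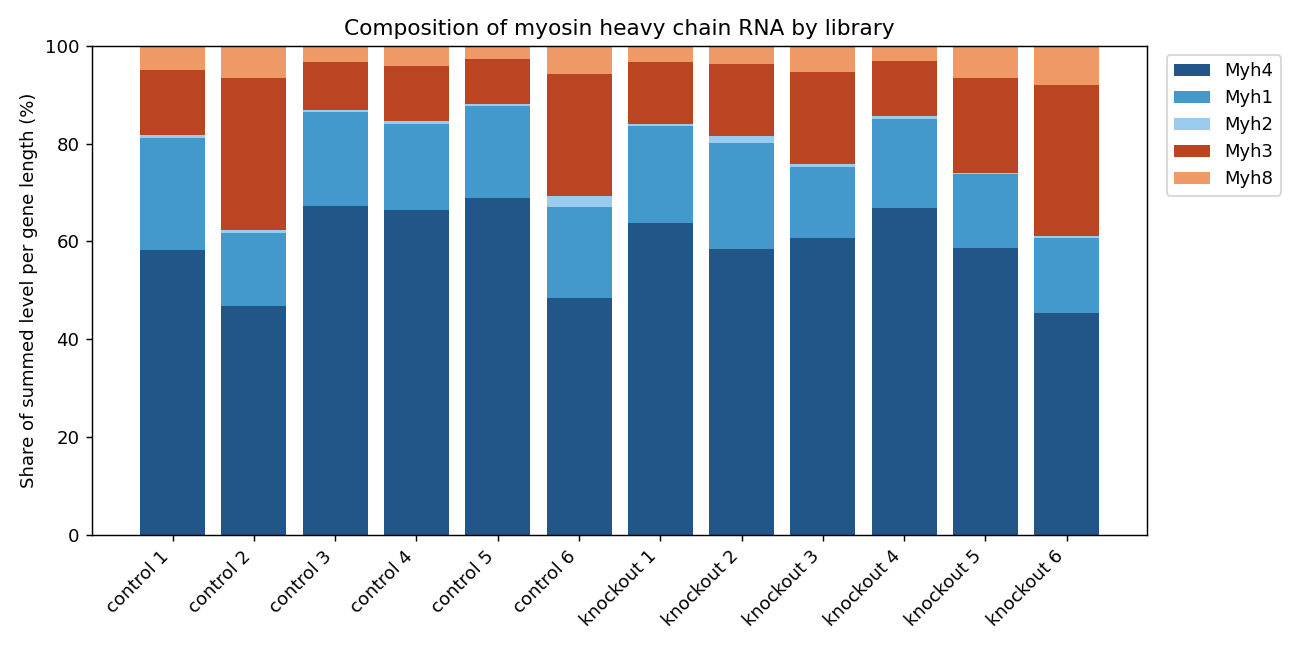
Share of each myosin heavy chain in the summed level per gene length (percent), 1 bar per library, with adult fast forms in blue and developmental forms in orange. Myh6, Myh7 and Myh7b are too small to be seen, and the developmental shares of control 2 (37.7%), control 6 (30.7%) and knockout 6 (38.9%) exceed those of the other 9 libraries.

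The 3 libraries low in adult fast myosin were also low in adult fast partner genes and in mitochondrial counts. The 10 adult fast partner genes (among them Tnnt3, Actn3 and Pvalb) summed to 9324 CPM in control 2, 9097 CPM in control 6 and 7814 CPM in knockout 6, against 19355 to 30949 CPM in the other 9. Their mitochondrial shares of counts were 3.06%, 3.92% and 2.66%, and those of the other 9 ran from 4.18% to 10.8%. Low values in these 3 libraries were not limited to adult fast genes. The fibre marker Des was at 2096, 1911 and 1769 CPM in them, against 2573 to 3842 CPM in the other 9. Ttn, of the thick filament partners, was at 1631, 2120 and 1713 CPM, against 2751 to 4583 CPM. Myh3 was not low in them, at 2408, 2014 and 2091 CPM. Nor was the sum of the 10 slow partners, at 2484, 2365 and 2142 CPM. With the mitochondrial share as a covariate, a choice made after the data were seen, edgeR called 0 of the 7 myosin genes (1.12% of all genes). Myh4 then had a log2 fold change of 0.37 (unadjusted p = 0.0417, adjusted p = 0.390), and it was the only one of the 7 with an unadjusted p under 0.05. In that fit 1950 of all 16393 genes had an unadjusted p under 0.05.

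Members were then compared with each other across libraries, on log2 CPM centred on the group mean, in 5 relations adjusted together. Myh3 and Myh8 were correlated over the 12 libraries (Pearson r = 0.741, permutation p = 0.00973, adjusted 0.0243; Spearman rho = 0.699, permutation p = 0.0142, adjusted 0.0356). Without control 2 and knockout 3, the libraries farthest from the median of Myh3, r was 0.804. Within groups r was 0.445 in controls and 0.978 in knockouts (n = 6 each, no p given). Without knockout 3 and knockout 5, which lie apart in both genes, r was 0.501 over the other 10 (exact permutation p = 0.233), so the relation rested on those libraries.

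Myh1 and Myh4 split into 3 low and 9 high libraries, so no pooled correlation is given for this pair. Its pooled value is still among the 5 adjusted together. Among the 9, Pearson r was 0.374 (exact permutation p = 0.362, adjusted 0.724) and Spearman rho was 0.150 (exact permutation p = 0.718). That adjustment is a separate one, over this pair and Myh3 with Myh4 within the 9. Without control 1 and knockout 4 r was -0.160, and no relation passed the test within the 9. Those 9 were chosen by their Myh4 level, which narrows its range. A weak r among them therefore cannot decide whether Myh1 and Myh4 go together. Myh3 and Myh4 over 12 libraries had r = -0.324 (permutation p = 0.315, adjusted 0.393) and rho = -0.434 (permutation p = 0.178, adjusted 0.297). Within groups that r was -0.824 in controls and 0.189 in knockouts. Within the same 9, which leave out the libraries low in Myh4, Myh3 and Myh4 had r = 0.0914 (exact permutation p = 0.844) and rho = 0.200 (exact permutation p = 0.662). Myh2 and Myh7 over 12 libraries had r = 0.319 (permutation p = 0.423, adjusted 0.423) and rho = 0.364 (permutation p = 0.286, adjusted 0.357), and r was -0.112 without knockout 2 and knockout 6. Myh3 and the adipocyte gene Adipoq, the fat hormone adiponectin, had r = -0.355 (permutation p = 0.269, adjusted 0.393) and rho = -0.273 (permutation p = 0.376, adjusted 0.376). Without control 2 and knockout 3 that r was -0.657, and within groups it was 0.187 in controls and -0.604 in knockouts.

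**Figure D4:**
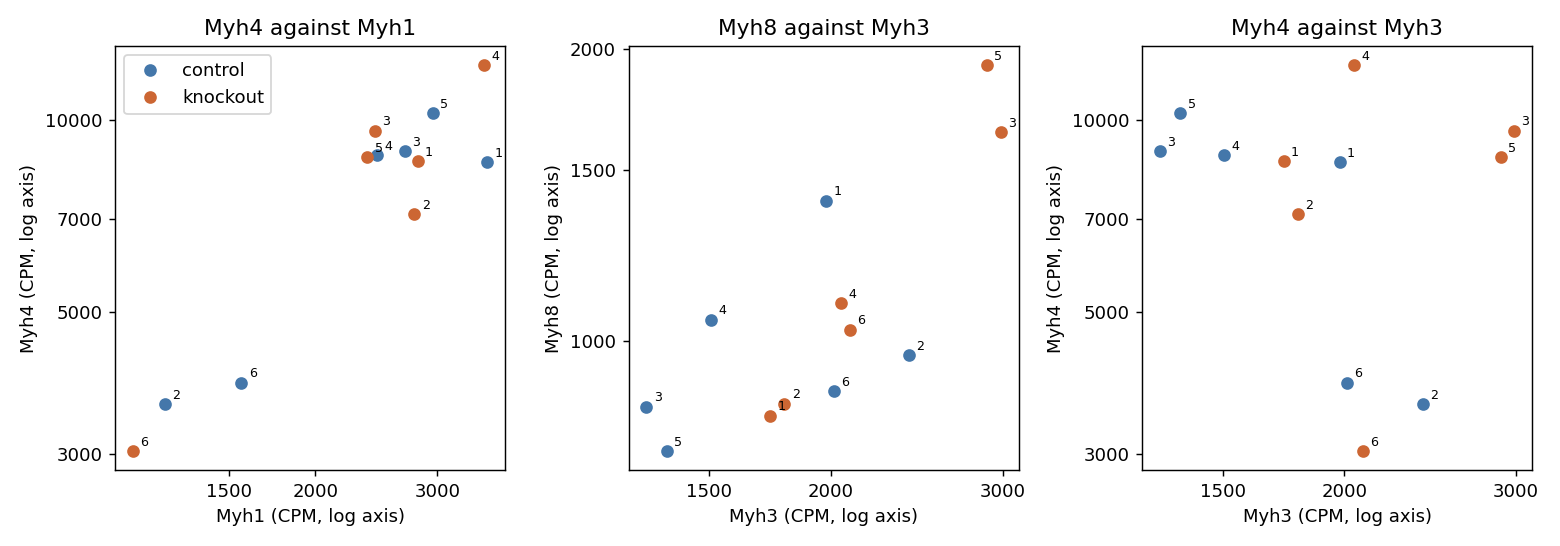
Levels in CPM (log axes) of Myh4 against Myh1, Myh8 against Myh3 and Myh4 against Myh3 in 6 control and 6 knockout libraries, numbered by replicate. Control 2, control 6 and knockout 6 form a low set for Myh1 and Myh4, and knockout 3 and knockout 5 lie at the upper end for Myh3 and Myh8.

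The genes whose proteins build or fold the thick filament were read from lists beside the myosins. Genes of a list share fibres and libraries, in these lists and those below, so a common sign is a description. Mybph, Myl2, Myl3 and Myl4 each recur between lists. Of 8 thick filament partners 0 passed the edgeR test, and all 8 fold changes were above 0 (median log2 fold change 0.26). Mybph, a myosin binding protein, averaged 125 ± 13.1 CPM and 163 ± 40.0 CPM in the groups (n = 6 each; log2 fold change 0.38, edgeR adjusted p = 0.319), and was the list's only member with an unadjusted p under 0.05. Myom3, which crosslinks myosin at the M-band, had a log2 fold change of 0.40 (adjusted p = 0.586), and Myom2 of 0.27 (adjusted p = 0.803). Of 6 genes for myosin folding and turnover 0 passed, with 6 above 0 and a median of 0.29. Trim55, a ubiquitin ligase of the M-band, had 0.29 (adjusted p = 0.411), Unc45b, the myosin chaperone, had 0.30 (adjusted p = 0.726), and Smyd1, a methyltransferase that acts with it, had 0.25 (adjusted p = 0.777). Of these 14 genes, Mybph and Trim55 had an unadjusted p under 0.05, against 9.47% of all genes, and DESeq2 and limma-voom called 0 of the 14.

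Light chains, which bind the neck of the myosin head, gave 0 of 7 tested past the edgeR threshold, 0 at an unadjusted p under 0.05, and 7 above 0 (median 0.18). DESeq2 and limma-voom called 0 of them. Myl4, the embryonic light chain, averaged 990 ± 118 CPM over controls and 1125 ± 230 CPM over knockouts (SD, n = 6 each, log2 difference 0.18, edgeR adjusted p = 0.794). Of 6 other myosin heavy chain genes, 5 were tested and 0 passed with edgeR, DESeq2 or limma-voom, with 0 at an unadjusted edgeR p under 0.05. Myh9, the main non-muscle form, was at 387 ± 71.0 and 442 ± 75.8 CPM (edgeR adjusted p = 0.789). Myh10, another non-muscle form, had a log2 fold change of 0.14 (adjusted p = 0.781) and Myh14 of 0.34 (adjusted p = 0.918).

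Partner genes of each fibre type had mostly positive fold changes and no call. Adult fast partners (10 genes) had a median log2 fold change of 0.12 with 9 above 0, the 10 slow partners 0.30 with 10 above 0, and the 9 developmental partners 0.34 with 9 above 0. In each list 0 genes passed by edgeR, DESeq2 or limma-voom. At an unadjusted p under 0.05 edgeR found 0 adult fast, 0 slow and 4 developmental partners, against 9.47% of all genes. The 4 were Ncam1 (a surface protein of young fibres, log2 fold change 0.42, adjusted p = 0.259), Mybph, Tnnt2 (the cardiac and embryonic troponin T, 0.34, adjusted p = 0.340) and Mymk (the membrane protein that fuses myoblasts, 0.29, adjusted p = 0.452). DESeq2 counted 0 adult fast, 2 slow and 6 developmental partners at an unadjusted p under 0.05, against 1704 of all 16393 genes. Limma-voom counted 0 adult fast, 5 slow and 8 developmental partners, against 2496 of all 16393 genes. Knockout 3 and knockout 5, which stand out in Myh3 and Myh8, both lay above all controls in 5 of the 9 developmental partners (Myl4, Tnnt2, Chrna1, Ncam1 and Mybph). The share of all genes in which both did so is not given here. Earlier results of these data for developmental muscle genes were known when the list was made, so these counts are no independent support.

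Slow troponins were abundant in this muscle although slow myosin was not. Tnni1, Tnnt1 and Tnnc1, the slow troponin subunits, had control means of 121.9, 135.8 and 157.6 FPKM, against 0.736 FPKM for Myl2 and 1.42 FPKM for Myl3. Myh7 reached at most 1.42 FPKM, in knockout 2. In whole muscle these values do not show which fibres held the troponin RNA, so the slow partner list is no measure of slow fibres. None of the 3 troponins passed the test between groups (log2 fold changes 0.31, 0.29 and 0.35; edgeR adjusted p = 0.537, 0.626 and 0.551). The fast troponin C gene Tnnc2 was read at only 0.152 to 1.49 CPM, and 74% of its exonic bases overlap Ube2c on the opposite strand, so its value is uncertain.

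Regulators known to act on myosin genes were positive more often than not, which is a description, as these genes share libraries. Of 19 tested, 0 passed by edgeR (0.799% of all genes), 16 had a fold change above 0 with a median of 0.19 (49.5% of all genes), and 4 had an unadjusted p under 0.05 (9.47% of all genes). Myod1, the myogenic factor of myoblasts, averaged 87.9 ± 13.0 CPM over controls and 129.6 ± 33.6 CPM over knockouts (SD, n = 6 each), with 4 knockouts above all controls (log2 fold change 0.56, edgeR adjusted p = 0.160). DESeq2 called 1 of the 19 higher, Myod1 (adjusted p = 0.0387), against 0.409% of all genes. Limma-voom called 2 higher, Myod1 (adjusted p = 0.0334) and Mef2d, against 0.39% of all genes. The calls of Myod1 and Mef2d thus depended on the tool. Mef2d, a factor of fibre maturation, was at 134.3 ± 3.84 and 162.3 ± 23.3 CPM (log2 fold change 0.27, edgeR adjusted p = 0.234, limma-voom adjusted p = 0.0363). Mef2a had 0.28 (edgeR adjusted p = 0.280), and Myog, which drives myoblasts to differentiate, had 0.42 (edgeR adjusted p = 0.296). The long noncoding RNA 2310065F04Rik, which lies between Myh3 and Myh2 in the cluster and is known as linc-Myh, averaged 8.90 ± 3.68 CPM over controls and 10.2 ± 5.51 CPM over knockouts (SD, n = 6 each, log2 difference 0.19, edgeR adjusted p = 0.957).

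The genes most like each myosin were named by Pearson r of group-centred log2 CPM over the 12 libraries, from the 3 highest among 12527 protein-coding genes (12528 for Myh7), as a description. All points share library and depth. For Myh4 they included Scn4a (r = 0.992) and Hrc (0.991), and for Myh1 they were Fry (0.968), Asb15 (0.966) and Slc25a12 (0.954). Myh4 and Myh1 both carry the split into 3 low and 9 high libraries. For Myh3 they were Atp2a2 (0.964), the calcium pump of slow and heart muscle, Tubb6 (0.955) and Tmem132a (0.930). For Myh8 they were Myom3 (0.937), Fgfrl1 (0.932) and Myl4 (0.925). The minor forms had looser matches. These were Stx17 (0.870), Anxa9 (0.834) and Ggact (0.810) for Myh2, Bri3bp (0.898), Etv3 (0.889) and Cbr3 (0.888) for Myh7, and, among others, Tbl3 (0.908) and Ddx49 (0.889) for Myh7b.

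How well reads could be told apart differed between members. Of the 50-base words in each gene's longest coding transcript, the part also present in another gene was 32.1% for Myh1, 28.9% for Myh2, 28.2% for Myh7, 22.6% for Myh6, 21.4% for Myh8, 18.9% for Myh4, 4.81% for Myh3 and 0% for Myh7b. Myh1 and Myh2 share the most with each other, 19.7% of words, and their transcripts are 89.8% identical. Myh1 was read far above Myh2 in every library. The authors' treatment of reads with several matches was not given in the sources used here, and the split among Myh1, Myh2, Myh4 and Myh8 and between Myh6 and Myh7 is uncertain. Exons on the opposite strand overlap 13.3% of the exonic bases of Myh7 and 8.11% of those of Myh1. The overlapping RNA Myhas was read at 83 to 328 counts beside Myh1, and Mhrt, which overlaps Myh7, at 0 in all libraries.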

How the data were processed

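RNA was sequenced from poly-T-selected RNA of 12 whole tibialis anterior samples (6 control, 6 knockout, grouped by title and genotype). The authors deposited whole-number read counts per gene, and per the submitters' processing notes they used fastp, HISAT2 2.0.5 and featureCounts on GRCm38 (mm10). Strand and multi-mapping settings were not given in the sources used here. They also deposited FPKM values, which equal the count per table gene length over a library denominator. That denominator is 1.00 to 1.02 times the TMM library size.

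The count test was edgeR 4.0.16 (R 4.3.3): filterByExpr (minimum count 10, minimum total 15; 16393 genes kept), TMM, robust quasi-likelihood F tests, and Benjamini-Hochberg adjustment over all tested genes at 0.05. CPM values use TMM library sizes, and log2 CPM a prior count of 2. Shares were compared by exact permutation over 924 assignments of libraries, and correlations over 12 libraries by 100000 permutations within groups. Transcripts were aligned with MAFFT 7.526, and shared words counted on GENCODE transcripts. On simulated counts the fit recovered 78 of 100 genes changed 1.5-fold and 92 of 100 changed 2-fold, with 4 false among 174 calls over 16393 genes. The changed genes were drawn from the more highly expressed ones, and each gene was simulated independently. The recovery is therefore no measure of power for the myosins, whose log2 SE was 0.33 for Myh4, 0.46 for Myh2 and 0.64 for Myh7.

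The members and the lists were chosen with earlier results of these data known. Named genes are the 8 members, the 3 with the smallest p on each list, list genes set beside a member of their fibre type, and the 3 genes most like each tested member. The other genes with an unadjusted p under 0.05 were named after their values were seen, as were the neighbouring and overlapping genes. Alternatives covered scaling, DESeq2 1.42.0, limma 3.58.1 (voom with quality weights, and log2 FPKM with a pseudocount of 1), the filter, the replicate number as a block, and each library left out. Chosen after the data were seen were the mitochondrial covariate, the coding transcript length, and the relations within subsets of libraries. No libraries were duplicates (chi-square per degree of freedom at least 12.9 in 30 pairs within groups). The marker lists not described with the myosins summed to 397 to 877 CPM (FAPs), 350 to 664 CPM (smooth muscle) and 27.5 to 118 CPM (tendon). For Myh4 and Myh7b, 1 of the 3 most similar genes is not reported here.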

Additional observations from a re-analysis of the deposited data

Results flagged for a closer look

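Each of 32 groups of 6 libraries, the CPM and the share of each myosin in each group, was tested for a library far from the others, and chance gives about 1 in 20. There were 9 such values. The CPM and the share of a gene come from the same counts, so the 32 groups are not independent. The 9 therefore cannot be weighed against that rate. For Myh2 control 6 stood at 219.3 CPM (next highest 110.5), with a share of 2.31% (next 0.633%), and knockout 2 had a share of 1.44% (next 0.615%). For Myh7 knockout 2 stood at 12.3 CPM (next 2.61), with a share of 0.0706% (next 0.0151%), and control 3 was the lowest control at 0.579 CPM (next 1.47). For Myh6 knockout 2 stood at 2.47 CPM (next 0.549), with a share of 0.0182% (next 0.00469%), and control 5 stood at 1.09 CPM (next 0.290). Of the 9 values 5 belong to knockout 2, in Myh2, Myh6 and Myh7, and those for Myh6 rest on 44 counts or fewer.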

How the results depend on the processing

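None of the 7 tested myosin heavy chains was called under any of the 21 other fits, in which the smallest adjusted p was 0.151, for Myh3. Myh6 entered only the fit without a low count filter (log2 fold change 0.93, adjusted p = 0.789). Adjusted p-values ran from 0.733 to 1.00 for Myh1, 0.849 to 1.00 for Myh2, 0.390 to 1.00 for Myh4, 0.151 to 0.917 for Myh3, 0.442 to 0.997 for Myh8, 0.476 to 0.980 for Myh7 and 0.268 to 0.921 for Myh7b. Over all genes the 131 calls became 236 with the replicate block, 399 with DESeq2 and 389 with limma-voom, and ran from 6 (without knockout 3) to 214 (without knockout 2) with 1 library left out. They were 65, 24, 72 and 12 without control 1, 2, 3 and 4, and 200, 9, 77 and 35 without knockout 1, 4, 5 and 6. The cause was not tested.

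The fold change of Myh2 turned negative with library totals only (-0.011), the replicate block (-0.031), limma-voom (-0.017) and FPKM (-0.060). With 1 library left out, log2 fold changes ran from -0.080 to 0.21 for Myh1, -0.33 to 0.39 for Myh2, 0.02 to 0.33 for Myh4, 0.26 to 0.47 for Myh3, 0.16 to 0.44 for Myh8, 0.09 to 1.39 for Myh7 and 0.40 to 0.70 for Myh7b. Share differences then ran, in points, from -2.04 to -0.374 for Myh1, -0.339 to 0.122 for Myh2, -2.94 to 2.32 for Myh4, -1.28 to 4.26 for Myh3, -0.144 to 0.829 for Myh8, -9.9e-05 to 0.00348 for Myh6, -0.000592 to 0.0133 for Myh7 and 0.00457 to 0.0122 for Myh7b. The fold change of Myh1 turned negative without control 2 or 6 or knockout 4. That of Myh2 did so without control 2, 3, 4 or 5 or knockout 2, 3 or 4. Among shares, the difference changed sign without knockout 2 for Myh6 and Myh7, without control 6 for Myh2, and without knockout 6 for Myh8. It also changed without control 3 or 5 or knockout 6 for Myh3, and without control 3, 4 or 5 or knockout 6 for Myh4.

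Same-numbered libraries correlated from -0.133 to 0.464, and 3 of 12 correlated best with their own number. Whether replicate numbers pair the libraries was not tested. With the replicate block the log2 fold changes were 0.06 for Myh1, 0.36 for Myh3, 0.16 for Myh4, 0.27 for Myh8, 0.58 for Myh7 and 0.58 for Myh7b. Depth limits Myh6 and Myh7, where most libraries held under 50 counts.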
